A study of Mus musculus with 9 samples.

Results

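Of the 15464 genes in the table of the adult mouse striatum, 7 encode the subunits of the GABA-A receptor described here, namely *Gabra2*, *Gabra3*, *Gabra4* and *Gabra5* for alpha subunits, *Gabrb1* and *Gabrb2* for beta subunits and *Gabrd* for the delta subunit. They were found by matching these symbols to the gene identifiers of the table, and each of the 7 was matched and passed the filter on low values that left 14239 genes for testing. RNA was taken from the striatum of male mice of the C57BL/6J background aged 10 to 12 weeks, 1 mouse per library, with 3 wild-type (WT), 3 heterozygous (HET) and 3 knock-out (KO) littermates for *Shank3*, a scaffold protein of excitatory synapses. HET and KO mice carry the *Shank3B* allele, in which a run of internal exons is targeted, on one or both chromosomes, and no group received a treatment. The question was whether fewer intact copies of *Shank3* go along with another level of the inhibitory receptor genes.

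The GABA-A receptor is a chloride channel opened by GABA and built from 5 subunits, as a rule alpha and beta subunits with a gamma or a delta subunit. The alpha subunit sets much of the pharmacology and of the site in the cell, and receptors with the delta subunit lie outside the synapse and carry a tonic current. Medium spiny neurons, which make up most of the striatum, are GABAergic themselves, receive GABA from one another and from interneurons, and are known for tonic currents through receptors with alpha4 and delta. The C57BL/6J strain is known for a noncoding variant that lowers *Gabra2* expression, and all 3 genotypes share this background.

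Of the 7 genes, 3 lie in 1 cluster. On GRCm38, *Gabra2* (ENSMUSG00000000560, chromosome 5, 70957597 to 71095849, minus strand), *Gabra4* (ENSMUSG00000029211, chromosome 5, 71569749 to 71658308, minus strand) and *Gabrb1* (ENSMUSG00000029212, chromosome 5, 71658113 to 72149037, plus strand) are neighbours. *Gabra5* (ENSMUSG00000055078, chromosome 7, 57407672 to 57510059, minus strand), *Gabrb2* (ENSMUSG00000007653, chromosome 11, 42419757 to 42629028, plus strand), *Gabra3* (ENSMUSG00000031343, chromosome X, 72432681 to 72656848, minus strand) and *Gabrd* (ENSMUSG00000029054, chromosome 4, 155384980 to 155398112, minus strand) are each on a chromosome of their own within the set. *Gabra4* and *Gabrb1* start head to head and overlap by 196 bases, of which 46 are in exons of both. *Gabra5* shares 148 exon bases, 4.98% of its exon length, with *Gm9962* on the opposite strand. The library kit keeps the strand, and the strand setting of the counting is not given in the sources used here. Reads from these shared bases may therefore have gone to either gene of the pair.

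The promoter windows of 4 genes are shown because the first pair starts side by side and has different levels below, and the second pair had the most similar pattern over the libraries. Each window holds 250 bases before and 50 bases after a RefSeq transcript start (GRCm38.p6) on the strand of the gene, and 6 of the 7 genes had at least 1 window in the table used. Capitals mark matches, on either strand, to the GC box, which reads GGGCGG, to the CCAAT box, named by its letters, to the TATA motif, which reads TATAAA, or to the EGR motif, which reads GCGNGGGNG with any base at N. The windows are chr5:71658259-71658558 on the minus strand, chr5:71657671-71657970 on the plus strand, chrX:72656870-72657169 on the minus strand and chr7:57510010-57510309 on the minus strand.
Gabra4: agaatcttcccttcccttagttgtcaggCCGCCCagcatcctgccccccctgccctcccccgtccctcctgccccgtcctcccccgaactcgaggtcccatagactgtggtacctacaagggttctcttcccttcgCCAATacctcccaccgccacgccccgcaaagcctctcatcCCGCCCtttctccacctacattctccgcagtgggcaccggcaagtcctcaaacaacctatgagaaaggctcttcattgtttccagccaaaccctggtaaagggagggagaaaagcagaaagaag
Gabrb1: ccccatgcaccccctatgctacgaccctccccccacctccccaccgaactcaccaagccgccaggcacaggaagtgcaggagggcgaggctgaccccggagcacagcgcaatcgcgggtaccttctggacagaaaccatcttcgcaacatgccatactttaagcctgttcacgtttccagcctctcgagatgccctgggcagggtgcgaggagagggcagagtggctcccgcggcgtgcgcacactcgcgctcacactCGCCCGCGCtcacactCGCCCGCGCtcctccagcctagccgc
Gabra3: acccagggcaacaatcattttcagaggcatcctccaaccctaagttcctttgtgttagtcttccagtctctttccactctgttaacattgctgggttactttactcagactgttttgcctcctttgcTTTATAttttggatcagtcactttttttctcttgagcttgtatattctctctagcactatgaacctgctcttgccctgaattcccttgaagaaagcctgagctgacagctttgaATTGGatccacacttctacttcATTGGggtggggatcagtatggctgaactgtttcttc
Gabra5: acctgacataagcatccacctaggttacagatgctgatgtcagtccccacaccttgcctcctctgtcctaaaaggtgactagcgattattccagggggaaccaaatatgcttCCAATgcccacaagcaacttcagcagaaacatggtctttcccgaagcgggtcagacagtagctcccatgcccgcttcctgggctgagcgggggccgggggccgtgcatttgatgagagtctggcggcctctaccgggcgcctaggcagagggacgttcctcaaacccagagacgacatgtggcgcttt

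The *Gabra4* window held 2 GC boxes and 1 CCAAT, while the *Gabrb1* window held 2 EGR motifs and none of the other letters searched. RefSeq gives a second start and window for *Gabrb1*, which held none of the motifs, and one for *Gabra3*, which held the same matches as the window shown. The *Gabra3* window held 1 TATAAA and 2 CCAAT, and that of *Gabra5* 1 CCAAT. Of 32851 windows of all genes, 35.7% held a GC box, 37.4% a CCAAT, 13.6% a TATAAA and 12.3% an EGR motif, so that the letters are common and a match is only a description. The cAMP response element TGACGTCA was searched as well and was in none of the windows of the 7 genes, against 1.79% of all windows. The GC content was 58.7% for *Gabra4*, 66.0% for *Gabrb1*, 43.0% for *Gabra3* and 56.7% for *Gabra5*, with a median of 52.7% over all windows.

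The values are normalized counts, the estimated reads per gene after division by a size factor. They summed to between 30830020 and 33790296 per library, and this sum follows the normalization, so that the depth in reads is unknown. The total for *Shank3* was 6043 to 8812 in WT, 7098 to 8050 in HET and 10240 to 10800 in KO. It covers exons outside the targeted ones, so it does not show their loss and is no full check of the labels. The KO range lay above those of WT and HET, and the paper reported a higher total in KO from these data. The HET range lay inside that of WT. HET replicate 3 and KO replicate 3 stood away from the other 7 libraries on the first principal component of all genes, which held 33.6% of the variance, and values without them are given for *Gabra4*, *Gabrd*, *Gabra3* and *Gabra5*. The 12 markers of medium spiny neurons used to check the tissue were each detected, with means of 2466 to 32205 normalized counts. The 8 markers of cortical glutamatergic neurons were each detected as well, with means of 302 to 34116, the highest being *Slc17a7*. The levels below are those of this dissected tissue, and the share of cortex in it is not known.

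The level of a gene was set against other genes only per length, as normalized counts per kilobase of annotated exon, which needs no test. In the WT striatum as dissected *Gabrd* was highest with 1266 ± 187 (SD, n = 3 mice), followed by *Gabra3* with 1030.4 ± 149.9. The ranges of these neighbours overlapped. *Gabra4* followed with 658 ± 79.2, *Gabra5* with 538 ± 42.0 and *Gabrb2* with 472 ± 52.6, and the ranges of neighbours among these 3 overlapped too. *Gabra3* and *Gabra4* did not overlap, nor did *Gabrb2* and *Gabra2*, with 121 ± 22.7, or *Gabra2* and *Gabrb1*, with 41.0 ± 3.94. Of the head-to-head neighbours, *Gabra4* thus stood at position 3 and *Gabrb1* at position 7.

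The order was the same in HET, and in KO *Gabra5* (572 ± 136.6) came before *Gabra4* (569.6 ± 82.9), with overlapping ranges. The choice of length moved the middle of the order. With the median coding transcript *Gabra4* stood at 1662 and *Gabra3* at 1483 in WT, so that *Gabra4* came second there and in HET but not in KO, while *Gabrb2* came before *Gabra5* with this length and with the longest transcript. *Gabrd* stayed first and *Gabra2* and *Gabrb1* last in each genotype under the 3 lengths.

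**Figure D1:**
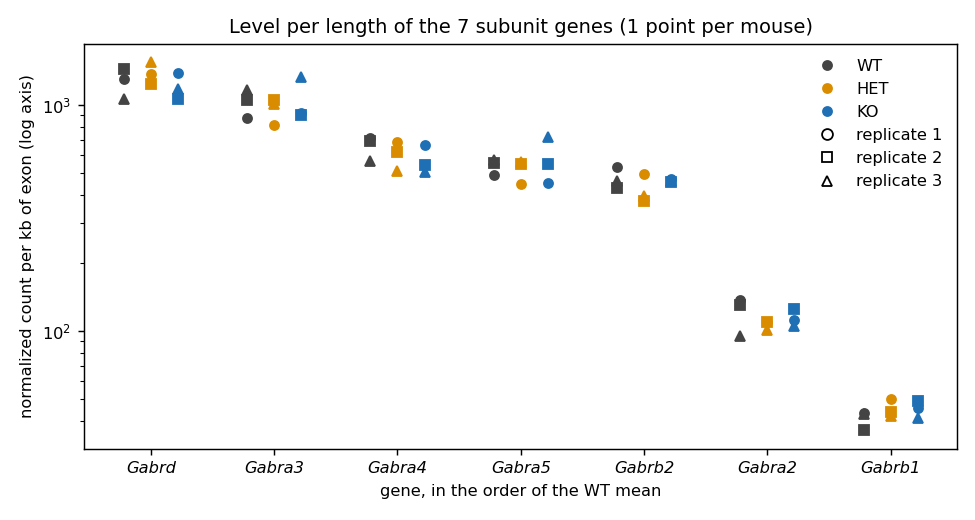
Normalized count per kilobase of exon (log axis) for the 7 subunit genes in the order of the WT mean, with 1 point per mouse, the colour giving the genotype and the shape the replicate number. Genotypes overlap within each gene, while genes differ, from 41.0 for *Gabrb1* to 1266 for *Gabrd* in WT.

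Within the summed level per length of the 7 genes, *Gabrd* took the highest mean share in each genotype, with a range from 26.9% to 33.2% in the WT mice, from 31.1% to 37.0% in the HET mice and from 27.2% to 34.2% in the KO mice. In WT replicate 3 and KO replicate 3 *Gabra3* was above *Gabrd*, with 1167 against 1066 and 1327 against 1180.1 per kilobase. *Gabra3* ran from 21.3% to 29.4%, from 20.6% to 26.3% and from 22.8% to 30.6% in the same order, and *Gabra4* from 14.3% to 17.5%, from 12.3% to 17.2% and from 11.7% to 16.4%. The share of *Gabra5* was 13.1% ± 1.21 in WT, 12.8% ± 1.37 in HET and 14.2% ± 2.80 in KO (SD, n = 3 mice each). *Gabrb2* ran from 9.86% to 13.0%, from 9.47% to 12.4% and from 10.6% to 12.3%, while *Gabra2* took 2.92% ± 0.491, 2.64% ± 0.189 and 2.87% ± 0.503 and *Gabrb1* from 0.841% to 1.34% over the 9 mice. The ranges of the 3 genotypes overlapped for each of the 7 shares, which are descriptions without a test.

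Between genotypes, none of the 7 genes changed past the threshold. In limma with Benjamini-Hochberg adjustment over 14239 genes, 0 of the 7 had an adjusted p under 0.05 in HET against WT, in KO against WT or in KO against HET, and 0 of the 7 had an unadjusted p under 0.05 in any of the 3. The share of all genes called was 0% at the adjusted threshold in each comparison, and 1.11%, 0.822% and 1.31% at the unadjusted one. These shares lie under the 0.05 that unchanged genes would give, so the fit calls few genes and 0 of 7 does not show that nothing changed. *Shank3* itself was not called at the adjusted threshold here. The paper, with DESeq2 and its own correction of p-values, called genes in HET and in KO, and *Shank3* was among those higher in KO. It traced the rise to exons outside the targeted ones, and its qRT-PCR gave a rise too. By direction, 0.604% of all genes were higher and 0.506% lower in HET than in WT, 0.386% and 0.435% in KO than in WT, and 0.744% and 0.562% in KO than in HET. With the replicate number as a block, 0 of the 7 genes had an unadjusted p under 0.05 in KO against HET, beside 2.23% of all genes, and 0 of the 7 in HET against WT, beside 2.56%. In KO against WT 1 of the 7 did, beside 2.18% of all genes, namely *Gabra4* (log2FC −0.21, standard error 0.078, unadjusted p = 0.0252 and adjusted p = 0.999 in limma). Over all genes the numbers did not pair these libraries in the check of their deviations. *Gabra4* itself was highest in number 1 and lowest in number 3 in each of the 3 genotypes. For no member did the 3 libraries of a genotype lie wholly above or below those of another. Among all genes, 2.25% lay wholly above and 2.19% wholly below WT in HET, 2.02% and 2.51% in KO, and 2.25% and 2.19% for KO against HET. A fold change (log2FC) is the difference of mean log2(normalized count + 1) and understates that of low genes.

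The median log2FC of the 7 genes was −0.10 in HET against WT, −0.025 in KO against WT and 0.097 in KO against HET, beside −0.0027, 0.0047 and −0.00099 over all genes tested. In HET 5 of the 7 values were negative, in KO 4, and in KO against HET 2. HET and KO are compared with the same 3 WT mice, and no likeness of their values is read from this. In absolute size the median change of the 7 genes was 0.13, 0.064 and 0.12 (log2), beside 0.088, 0.079 and 0.076 over all genes, and their standard errors had a median of 0.14.

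**Figure D2:**
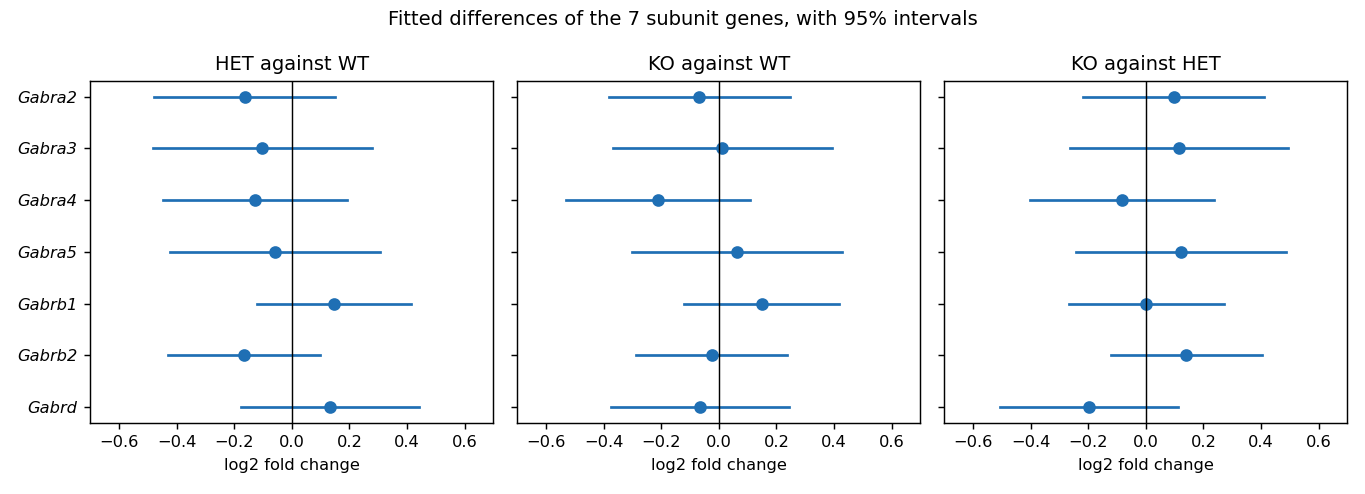
Fitted log2 fold change (horizontal axis) with its 95% interval for each of the 7 genes in the 3 comparisons, from limma over the 9 libraries. Each of the 21 intervals includes 0, and the point farthest from it is *Gabra4* in KO against WT at −0.21.

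*Gabra4* encodes the alpha4 subunit, the partner of delta in extrasynaptic receptors. Its normalized count was 4336, 4219 and 3449 in the WT mice, 4145, 3746 and 3111 in the HET mice and 4035, 3281 and 3078 in the KO mice. Of the mutant mice, 2 KO mice and 1 HET mouse were under the lowest WT mouse, and the others lay inside the WT range. The log2FC was −0.21 in KO (standard error 0.14, 95% interval −0.53 to 0.11, adjusted p = 0.999 in limma), a difference of −13.6% that could be as large as −30.7% or as small as 7.87% in the other direction. In HET it was −0.13 (interval −0.45 to 0.19). Without HET replicate 3 and KO replicate 3 the values were −0.015 in HET and −0.13 in KO. When single libraries were left out they ran from −0.23 (without WT replicate 3) to −0.015 (without HET replicate 3) in HET, and from −0.32 (without KO replicate 1) to −0.13 (without KO replicate 3) in KO. An exact two-sided permutation test gave p = 0.2 for KO and p = 0.5 for HET, and 3 mice against 3 cannot go below 0.1.

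*Gabrd* encodes the delta subunit, which replaces gamma in these receptors. The WT mice had 3724, 4129 and 3063 normalized counts, the HET mice 3933, 3565 and 4426, and the KO mice 3976, 3054 and 3393. HET replicate 3 was the highest of the 9 and KO replicate 2 the lowest. The log2FC was 0.13 in HET (interval −0.18 to 0.44), −0.064 in KO (interval −0.37 to 0.25) and −0.20 in KO against HET (interval −0.51 to 0.11), each within the spread between mice. Without HET replicate 3 and KO replicate 3 it was 0.05 in HET and −0.05 in KO.

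*Gabra2* encodes the alpha2 subunit of synaptic receptors, prominent in striatal neurons. The WT mice had 1049, 996 and 726 normalized counts, the HET mice 838, 834 and 771, and the KO mice 852, 959.6 and 806. WT replicate 3 lay under all mutant mice and the other 2 WT mice above them. The coefficient of variation was 18.8% in WT against 4.65% in HET and 9.02% in KO. The log2FC was −0.16 in HET (interval −0.48 to 0.15) and −0.067 in KO (interval −0.38 to 0.25). Its size depended on single WT mice. Without WT replicate 3 it was −0.33 in HET (unadjusted p = 0.0187 and adjusted p = 1 in limma) and −0.23 in KO, and without WT replicate 1 it was −0.063 in HET and 0.034 in KO.

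*Gabra3*, for the alpha3 subunit, and *Gabra5*, for the alpha5 subunit of extrasynaptic receptors best known from the hippocampus and cortex, had a common pattern. *Gabra3* had 3414, 4136 and 4579 normalized counts in WT, 3208, 4115 and 3955 in HET and 3616, 3521 and 5207 in KO. *Gabra5* had 1461, 1644 and 1699 in WT, 1329, 1634 and 1663 in HET and 1337, 1628 and 2139 in KO. KO replicate 3 was the highest and HET replicate 1 the lowest library for both. The KO mice varied most, with a coefficient of variation of 23.0% for *Gabra3* and 23.9% for *Gabra5*, against a median of 12.3% over all genes in KO. The log2FC in KO was 0.012 for *Gabra3* (interval −0.37 to 0.39) and 0.063 for *Gabra5* (interval −0.30 to 0.43), and in HET it was −0.10 and −0.059. Without HET replicate 3 and KO replicate 3 the values were −0.17 for *Gabra3* and −0.12 for *Gabra5* in KO, and −0.14 and −0.12 in HET.

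*Gabrb1* and *Gabrb2* encode the beta1 and beta2 subunits, which form the GABA site together with alpha. *Gabrb1* had 602, 504 and 594 normalized counts in WT, 692, 608 and 582 in HET and 633, 682 and 569.7 in KO, and 2 mice of each mutant genotype were above the highest WT mouse. Its log2FC was 0.15 in HET (interval −0.12 to 0.42) and 0.15 in KO (interval −0.12 to 0.42), and it was 0.065 and 0.067 without WT replicate 2. KO and HET differed by 0.0019 (interval −0.27 to 0.27), so that a difference of up to 20.6% between them is within the interval.

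*Gabrb2* had 3371, 2717 and 2919 normalized counts in WT, 3130, 2401 and 2520 in HET and 3001, 2886 and 2933 in KO. The KO mice were the most alike of any genotype and member, with a coefficient of variation of 1.96%, and they lay inside the WT range. The log2FC was −0.17 in HET (standard error 0.12, interval −0.43 to 0.097) and −0.025 in KO (interval −0.29 to 0.24). Without HET replicate 1 it was −0.28 in HET, with an unadjusted p of 0.0304 and an adjusted p of 0.974 in limma, and without WT replicate 1 it was −0.079.

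**Figure D3:**
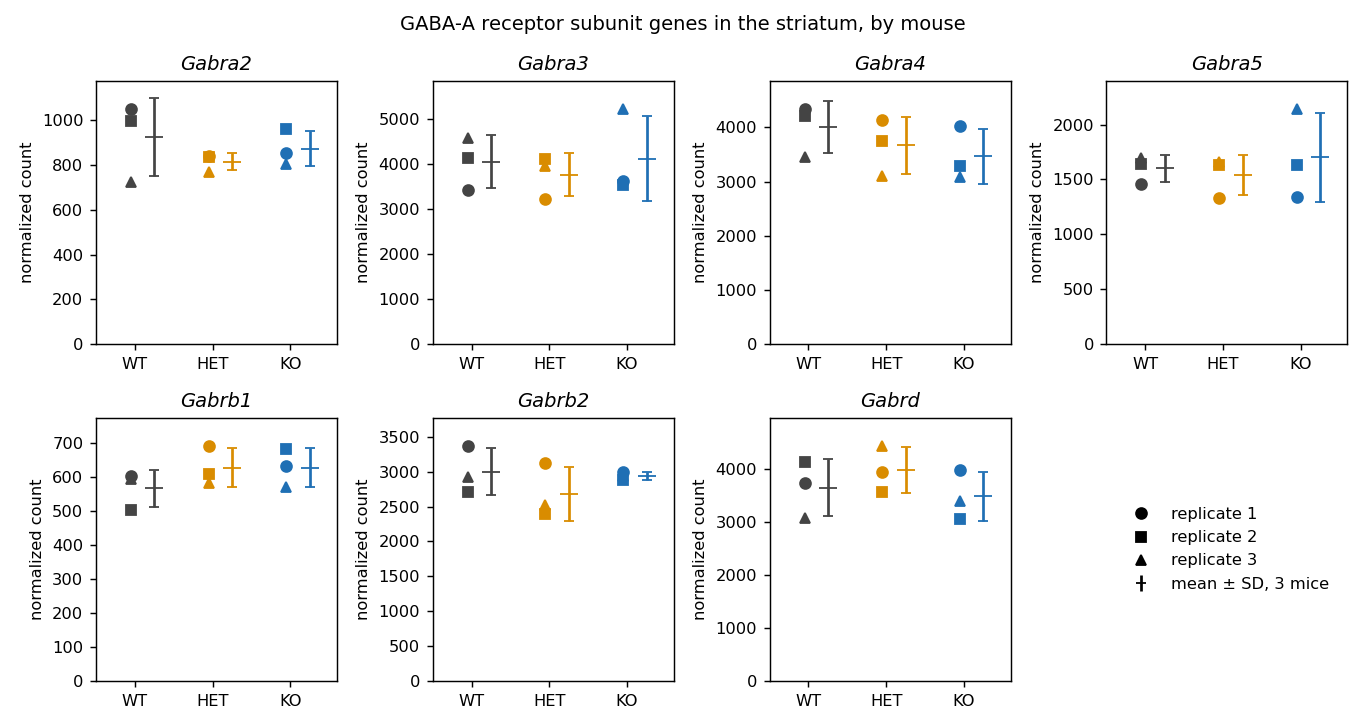
Normalized counts of the 7 subunit genes (vertical axis, from 0) in each of the 9 mice by genotype, the shape giving the replicate number, with the mean ± SD of 3 mice beside the points. The genotypes overlap for each gene, and the KO mice range from 3521 to 5207 for *Gabra3* but only from 2886 to 3001 for *Gabrb2*.

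The members differed in how they moved from mouse to mouse. The measure was the mean absolute difference between 2 genes of their log2 values, each centred on its mean over the 9 libraries. *Gabra3* and *Gabra5* were the closest pair of members at 0.076, and each was the other's nearest member, at rank 54 of 14238 genes for *Gabra3* and rank 125 for *Gabra5*. The farthest pair was *Gabra4* and *Gabra5* at 0.30. For *Gabra2* and *Gabra4* the nearest member was the other one, at 0.13, but at ranks 1594 and 1772. *Gabrb1* and *Gabrb2* were each other's nearest member at 0.14, at ranks 3407 and 3268. The mean absolute centred value of each alone was smaller, 0.098 and 0.11, so no shared movement is read from their distance. It was 0.14 for *Gabra2*, 0.17 for *Gabra4*, 0.17 for *Gabra3* and 0.15 for *Gabra5*, above the distance within their pairs.

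Over all genes, the 2 nearest to *Gabra3* were *Cck*, the cholecystokinin peptide of many cortical neurons, at 0.045, and *Sh3gl2* at 0.048. Those nearest to *Gabra5* were *Sprn* (0.028) and *Ppm1h* (0.048), those nearest to *Gabra2* were *Dclk3* (0.046) and *Ripor2* (0.047), and those nearest to *Gabra4* were *Pex26* (0.045) and *Tmem164* (0.049). *Gabrd* was closest to *Rgs4*, a regulator of G protein signalling, at 0.053, and to *mt-Nd4* at 0.057. *Elovl5* (0.048) and *Cdr2l* (0.0495) were nearest to *Gabrb1*, and *Zfp324* (0.036) and *Klf12* (0.043) to *Gabrb2*. These are the smallest of 14238 differences each and carry no test.

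Summed markers of cell types were set beside the members. A dissected striatum can hold neighbouring cortex, and fewer cells of a type cannot be told apart from less RNA per cell. The summed level of the 8 cortical markers, *Slc17a7* and *Neurod6* among them and none at 0, ran from 40997 to 52861 normalized counts in WT, from 35564 to 49733 in HET and from 39911 to 57003 in KO. It was highest in KO replicate 3 and lowest in HET replicate 1, as were *Gabra3* and *Gabra5*. Of the 9 pairs of mice within a genotype, *Gabra3* and *Gabra5* each had the order of the cortical sum in 8, and *Gabra4* in 1, *Gabra2* in 2, *Gabrb2* in 2, *Gabrb1* in 3 and *Gabrd* in 3. The 9 pairs come from 3 mice in each genotype and are not independent. How many of all genes reach such counts was not determined, here or for the lists below.

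The summed level of the 12 medium spiny neuron markers, *Drd1* and *Ppp1r1b* among them and none at 0, ran from 103927 to 203865 in WT, from 138781 to 178954 in HET and from 101230 to 150699 in KO. The median log2FC of these markers was −0.26 in KO and 0.036 in HET against WT, and 0 of the 12 had an unadjusted p under 0.05 in limma. *Gabra4* and *Gabrd* each had its order in 7 of the 9 pairs, *Gabra2* and *Gabrb2* in 6, *Gabrb1* in 5, and *Gabra3* and *Gabra5* in 2. HET replicate 3 was an exception for *Gabra4*, with a marker sum of 173452 and the lowest *Gabra4* count of the HET mice. Other lists came close to these counts. The order of striatal interneuron, astrocyte and choroid plexus markers was that of *Gabra3* and of *Gabra5* in 7 of the 9 pairs each, and the order of microglia markers was that of *Gabra4* in 7, so that the likeness was not particular to the cortical or medium spiny list. The choroid plexus sum was mostly *Enpp2*, with a mean of 7382 normalized counts, while *Ttr* had 4.60, so it says little about that tissue. In the interneuron list the largest means were those of *Sst* (4616) and *Npy* (2430). The part of these markers in the differences between mice was not tested.

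**Figure D4:**
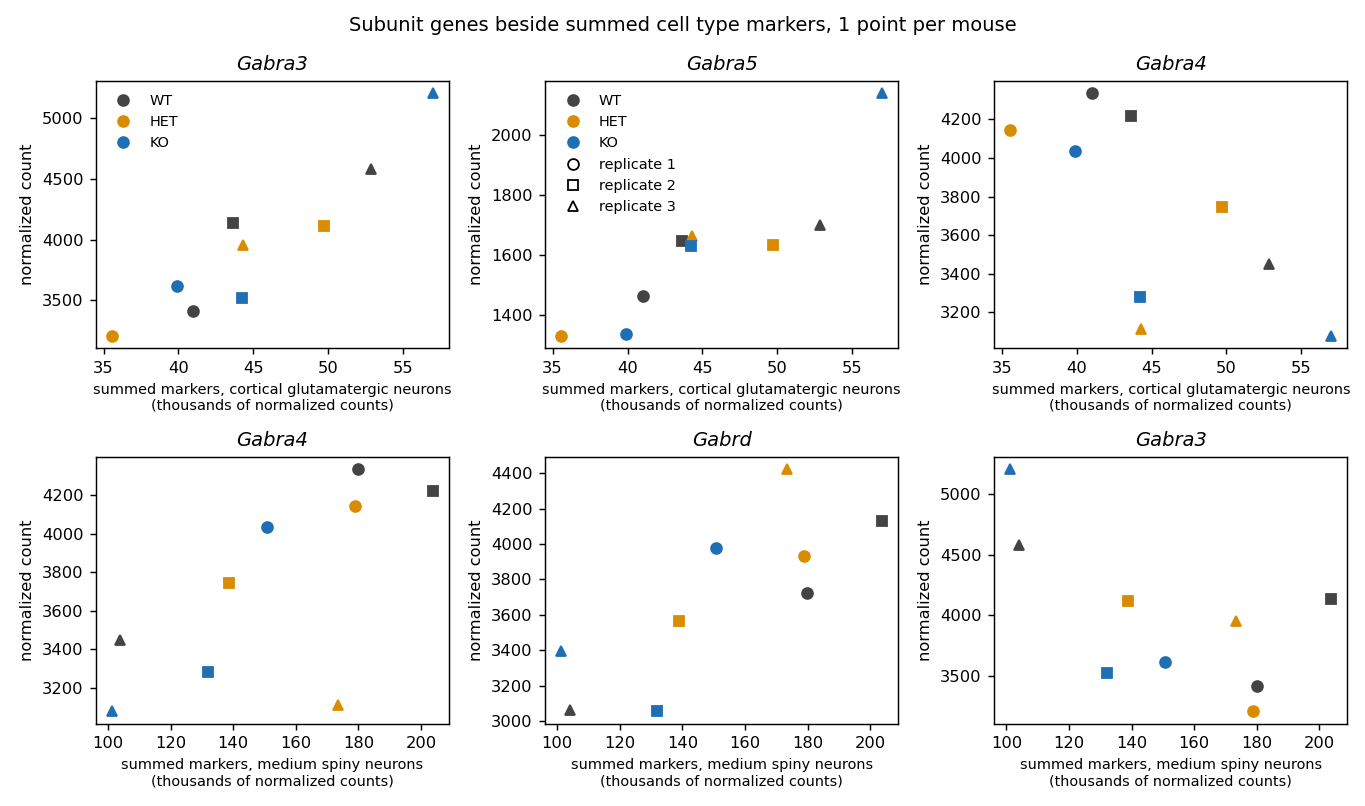
Normalized count (vertical axis) of *Gabra3*, *Gabra5* and *Gabra4* against summed cortical glutamatergic markers (upper row) and of *Gabra4*, *Gabrd* and *Gabra3* against summed medium spiny neuron markers (lower row), both in normalized counts, with 1 point per mouse. KO replicate 3 has the highest cortical sum, 57003, and the highest *Gabra3* and *Gabra5*, while *Gabra4* is lowest there, and *Gabrd* has the order of the medium spiny sum in 7 of 9 pairs within a genotype.

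With the cortical sum as a covariate of the fit, a setting chosen after seeing the values, the standard error of the KO effect went from 0.17 to 0.091 for *Gabra3* and from 0.16 to 0.097 for *Gabra5*, and their log2FC was −0.017 and 0.037. *Gabra4* was then at −0.19 in KO (standard error 0.11, adjusted p = 1 in limma) and at −0.19 in HET. With the medium spiny sum as the covariate *Gabra4* was at −0.10 in KO and *Gabrd* at 0.060, where the sign had been negative. All 12 medium spiny markers had a negative log2FC in KO against WT and in KO against HET, with a median of −0.35 in the latter. This covariate thus went along with the genotype, and the fit cannot tell the 2 apart. The values with it are not read as adjusted effects. In both settings 0 of the 7 genes had an unadjusted p under 0.05, and 0 of all genes tested had an adjusted p under 0.05. The share of all genes at the unadjusted threshold in these fits is not given here. Nothing is therefore read from the count of members.

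The other marker lists overlapped between WT and each mutant genotype. Summed levels over the 3 genotypes ran from 10559 to 11804 for striatal interneurons, from 2884 to 3220 for thalamic neurons, from 1777 to 3719 for septal neurons, from 138604 to 266198 for oligodendrocytes, from 107825 to 125820 for astrocytes, from 10257 to 12086 for microglia, from 3983 to 4878 for vessels and from 6022 to 8581 for choroid plexus. The last sum was mostly *Enpp2*, with a mean of 7382, and each other gene of that list had a mean of 154 or less. Between KO and HET the ranges of 2 sums did not overlap. The septal sum was 1988 to 3719 in KO and 1777 to 1943 in HET. The thalamic sum was 2942 to 3160 in KO and 3176 to 3220 in HET, a narrow gap, and its largest mean was that of *Rora* (1520). Of the 7 thalamic genes, 5 had a negative and 2 a positive log2FC in KO against HET. *Prkcd* went the other way from the sum, with 356 to 561 in KO and 321 to 341 in HET.

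The other genes of the GABA system were taken from lists of subunits and partners. *Gabbr2*, *Slc12a5* and *Gphn* are named below for their roles, outside the rule for naming and with their values seen. Of 12 other subunits, 10 were in the table and 7 passed the filter. *Gabre*, *Gabrr1* and *Gabrr3* were under it. None of the 7 had an adjusted p under 0.05 or an unadjusted p under 0.05 in any comparison, and their median log2FC was −0.067 in HET and −0.045 in KO. The value farthest from 0 in KO was that of *Gabrr2*, for a rho subunit, at 0.12 (interval −1.10 to 1.34), with only 8.88 to 36.6 normalized counts in WT and 13.7 to 26.7 in KO. Its mean count was lower in KO, 18.4 against 19.3 in WT, so that the sign depended on the scale.

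Among the 7 genes for synthesis, transport and breakdown of GABA, none passed either threshold, with medians of −0.026 in HET and −0.015 in KO. The largest value in KO was that of *Gad2*, for a GABA-making enzyme, at 0.17 (standard error 0.17), with 7963, 7485 and 5726 normalized counts in WT and 8085, 9128 and 6535 in KO. Of the 2 genes of the metabotropic GABA-B receptor, *Gabbr1* was at −0.046 and *Gabbr2* at 0.023 in KO. Of the 2 chloride transporters, *Slc12a2*, which carries chloride into the cell, was at 0.12 and *Slc12a5*, which carries it out, at −0.036. Again 0 of the 4 passed either threshold.

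The 9 genes of the inhibitory scaffold and of adhesion had medians of 0.011 in HET and 0.014 in KO. *Gphn*, for the scaffold protein gephyrin, was at −0.026 in KO (standard error 0.12). Among the 12 genes of receptor trafficking (medians −0.016 and −0.019), *Zdhhc3*, for a palmitoylating enzyme, had the largest value in KO at 0.19 (standard error 0.22), which came from KO replicate 3 with 3480 normalized counts against 2184 and 2050 in the other KO mice. HET replicate 3 stood as high at 3477. *Hap1*, a motor adaptor for the receptor, had 3240, 3462 and 2808 normalized counts in HET, all below the lowest WT mouse at 3535. Its log2FC in HET was −0.28 (unadjusted p = 0.117, adjusted p = 0.999 in limma). Of the 12 trafficking genes it was the 1 that lay wholly below WT in HET, beside 2.19% of all genes. In KO *Hap1* went the other way, with 3574, 5335 and 3375 normalized counts and a log2FC of 0.061. It was named after its values were seen. Of these 21 genes 0 had an unadjusted p under 0.05 in any comparison.

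**Figure D5:**
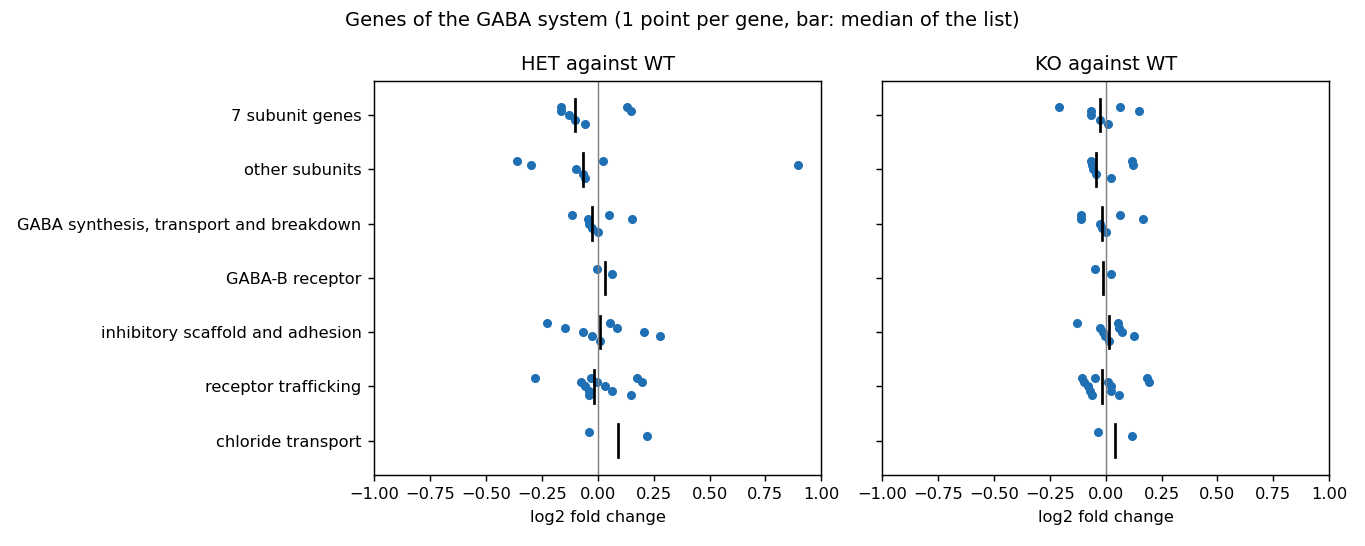
Fitted log2 fold change (horizontal axis) of each gene of the GABA system, 1 point per gene, in HET (left) and KO (right) against WT, by list, with a bar at the median of the list. The medians lie between −0.10 and 0.090 in HET and between −0.045 and 0.040 in KO, and the point far to the right in HET is *Gabrr2* at 0.90.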

How the data were processed

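Striatal RNA of 9 mice was sequenced. The authors estimated transcripts with Salmon 0.9.1 on GRCm38 with GC bias correction, summed them per gene with tximport and divided them by DESeq2 size factors, and the deposited signal is this normalized count. Low values were not multiples of a common step, so whole reads were not recovered and depth is unknown, and the error of each value is that between mice.

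Values were fitted as log2(normalized count + 1) with limma 3.58.1 in R 4.3.3 with a trend in the variance prior, over genes with at least 10 in at least 3 of the 9 libraries, with the genotype as factor, no covariate and Benjamini-Hochberg adjustment at 0.05. Intervals of 95% come from the same fit. The fit was also run on simulated data with independent noise in each library. Those data lacked the likeness between libraries seen here, so no support for the intervals is drawn from them. Each listed gene got an exact permutation test too (two-sided). Samples were grouped by their titles, with 0 columns left over, and no pair of libraries held identical values. Lengths and positions come from GENCODE M21 (GRCm38), symbols matched for 15457 genes, and promoters come from RefSeq.

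Named genes were the 7 members, the genes of the GABA lists at an unadjusted p under 0.05, the one of each list farthest from 0 in KO (1 of these is not reported here), and the 2 genes nearest to each member. Members, lists and marker lists were chosen with earlier results of these data known. Same-numbered libraries were checked for pairing by correlating their deviations from the genotype mean. This gave 0.515, 0.281 and 0.506 for KO and HET, and −0.221 to 0.319 with WT. The numbers thus paired KO and HET in this check, in which the deviations within a genotype share a mean and are not independent. What the numbers stand for is not given in the sources used here.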

Additional observations from a re-analysis of the deposited data

How the results depend on the processing

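Counts of 0 genes with an adjusted p under 0.05 held in each comparison under the 22 alternatives to the fit (other choices of pseudocount, filter, scaling, variance prior, samples, weights, block and covariates, and each library left out), and the smallest adjusted p of a member in any of them was 0.974. Of the 21 log2FC values of the members, 10 kept their sign in all 22. They were those of *Gabra2*, *Gabra4*, *Gabrb1*, *Gabrb2* and *Gabrd* in HET, of *Gabra4* and *Gabrb1* in KO, and of *Gabra2*, *Gabrb2* and *Gabrd* in KO against HET. The number of members at an unadjusted p under 0.05 was 1 in KO against WT with array weights (*Gabrb1*, log2FC 0.23) and 1 with the replicate number as a block (*Gabra4*, log2FC −0.21, unadjusted p = 0.0252 in limma), and it ran from 0 to 1 in HET against WT and in KO against HET when single libraries were left out. Over all genes the count with array weights in KO against WT was 395, against 117 without. The members called with a library left out were *Gabra2* in HET without WT replicate 3, beside 265 of all genes, and *Gabrb2* without HET replicate 1 in HET and in KO against HET, beside 287 and 223. The block changed no other call among the members. It raised the number of all genes at an unadjusted p under 0.05 from 186 to 318 (2.23%) in KO against HET, where the numbers pair the libraries, from 158 to 365 in HET and from 117 to 310 in KO. All 6 libraries of KO and HET correlated best with their own number, against 2 of 6 for either genotype with WT. The deviations within a genotype are taken from the mean of its 3 libraries, so the 6 are not independent. HET replicate 3 and KO replicate 3 were also the libraries that stood away on the first principal component (33.8 and 34.2). Over all genes, unadjusted counts lay between 116 and 393 in HET, between 70 and 289 in KO and between 141 and 298 in KO against HET when single libraries were left out.

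Signs changed as follows, and the cause was not tested. With quantile normalization *Gabra3* was at −0.0041 in KO, and with array weights *Gabra3* was at −0.12 and *Gabra5* at −0.064 in KO. Without HET replicate 3 and KO replicate 3, *Gabra3* was at −0.17 and *Gabra5* at −0.12 in KO, and *Gabra3* at −0.026 in KO against HET. When single libraries were left out, values in HET ran from −0.22 to 0.0072 for *Gabra3* and from −0.12 to 0.045 for *Gabra5*. In KO they ran from −0.23 to 0.034 for *Gabra2*, from −0.17 to 0.11 for *Gabra3*, from −0.12 to 0.22 for *Gabra5*, from −0.094 to 0.062 for *Gabrb2* and from −0.18 to 0.032 for *Gabrd*. In KO against HET they ran from −0.067 to 0.22 for *Gabra3*, from −0.20 to 0.012 for *Gabra4*, from −0.057 to 0.28 for *Gabra5* and from −0.059 to 0.074 for *Gabrb1*. With the cortical sum as covariate *Gabra5* was at 0.021 in HET, and *Gabra3* at −0.017 in KO and −0.0016 in KO against HET. With the medium spiny sum, *Gabra2* was at 0.054, *Gabra3* at −0.13, *Gabra5* at −0.054, *Gabrb2* at 0.0020 and *Gabrd* at 0.060 in KO, and *Gabra3* at −0.056, *Gabra4* at 0.048, *Gabra5* at −0.017 and *Gabrb1* at −0.0038 in KO against HET. Both covariates were chosen after seeing the data. The medium spiny markers were lower on average in KO, so values with that covariate are not read as adjusted effects.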

Other observations

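The replicate number went along with several members in the 3 genotypes. *Gabra4* was highest in the library numbered 1 and lowest in the library numbered 3 in each of the 3 genotypes, and *Gabra5* was lowest in number 1 and highest in number 3 in each. *Gabrb2* was highest in number 1 and lowest in number 2 in all 3, and *Gabra2* was lowest in number 3 in all 3. Several marker lists did so too. The summed cortical, striatal interneuron and vessel markers were lowest in number 1 in all 3, vessel markers were highest in number 2, astrocyte markers were highest in number 3 and microglia markers were lowest in number 3. For *Gabra3*, *Gabrb1* and *Gabrd* no number held an extreme in all 3 genotypes. The labels give no batch, and this was seen after the values were examined. How many of all genes have such an order was not counted, so it is not read as a trait of these members. In the check of deviations over all genes the numbers also paired the KO and HET libraries.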
